A study of Drosophila melanogaster with 18 samples.

Results

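The vacuolar proton pump (V-ATPase) subunit genes were taken as the protein-coding genes whose name in the deposited expression table begins with Vha, which gave 32 genes out of 13451 protein-coding genes and 15602 listed genes. By their names, 12 encode subunits of the cytosolic V1 sector, 18 encode subunits of the membrane V0 sector and 2 encode accessory proteins. They were followed by RNA sequencing of Drosophila wing imaginal discs, the epithelia from which the adult wing grows. All discs came from wild-type OregonR larvae dissected 96 h after egg laying. Discs were frozen uncultured or held in Grace's medium with 5% serum for 4 h without added hormone, for 4 h or 9 h with 20 nM 20-hydroxyecdysone (20E, the active form of the insect steroid ecdysone), or for 4 h or 9 h with 5 µg/ml bovine insulin. Each of the 6 groups held 3 libraries, described as biological replicates, from poly(A) RNA. About 15 discs shared a culture volume, so each library is a pool, and no group without hormone was kept for 9 h.

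The V-ATPase is a rotary machine. Its V1 sector hydrolyses ATP and turns a central stalk, and the stalk turns a ring in the V0 sector that carries protons across the membrane into lysosomes, endosomes and secretory vesicles. The pump serves lysosomal degradation, endocytic traffic and the sensing of nutrients at the lysosome, and in fly discs it is known for roles in Notch and Wnt family signalling. In flies several subunits are encoded by families of paralogues, and many of the extra copies are known to be used mainly in tissues other than discs.

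The 18 libraries held an estimated 27.4 to 39.0 M fragments, and replicates correlated at Pearson's r from 0.945 to 0.985 over the tested genes. Some libraries carried transcripts of other tissue. The summed level of 15 gut markers was 16274 FPKM in uncultured replicate 2 and 1148 FPKM in no hormone replicate 1, 339 and 237 FPKM in insulin 4 h replicates 2 and 3, and at most 69.8 FPKM in every other library. All 7 fat body markers stayed under the filter. Of 8 wing disc markers 7 were found in the table and all 7 passed. The member genes themselves summed to 1683 FPKM in uncultured replicate 2, against 1630 and 1636 FPKM in its replicates. The library 20E 4 h replicate 1 stood above its replicates for 15 of the 17 expressed members, while over all tested genes it was the highest of its group for 36.8%. Counts of called members that rest on these libraries are given with and without them. The paralogue shares and the other gene lists are given with all libraries alone.

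Genes with at least 1 FPKM (fragments per kilobase of transcript per M fragments) in at least 3 libraries were tested, and 17 of the 32 members passed that filter. These 17 comprised 8 V1 genes, 7 V0 genes and both accessory genes. The other 15 members did not pass, and their highest value in any library was 0.830 FPKM. Each of the 15 subunit types was represented by at least 1 expressed gene. Among the members, 13 types had 1 expressed gene and the membrane subunits a and e had 2. A further subunit A gene, Vha68-1, was not analysed here, and CG31030, now named VhaAC45RP, falls outside the name rule, so the counts for subunit A and the Ac45 type cover members alone. The highest mean level over the 18 libraries was that of Vha16-1, which encodes the ring subunit c, at 293 FPKM. It was followed by Vha13 (subunit G) at 205 FPKM and Vha68-2 (catalytic subunit A) at 161 FPKM. Vha55 (subunit B) and Vha26 (subunit E) had nearly the same mean level, 121.6 and 121.3 FPKM. The lowest levels among expressed members were those of Vha44 (subunit C) at 44.0 FPKM, Vha100-1 (subunit a) at 34.7 FPKM and VhaM9.7-c (subunit e) at 15.6 FPKM.

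**Figure D1:**
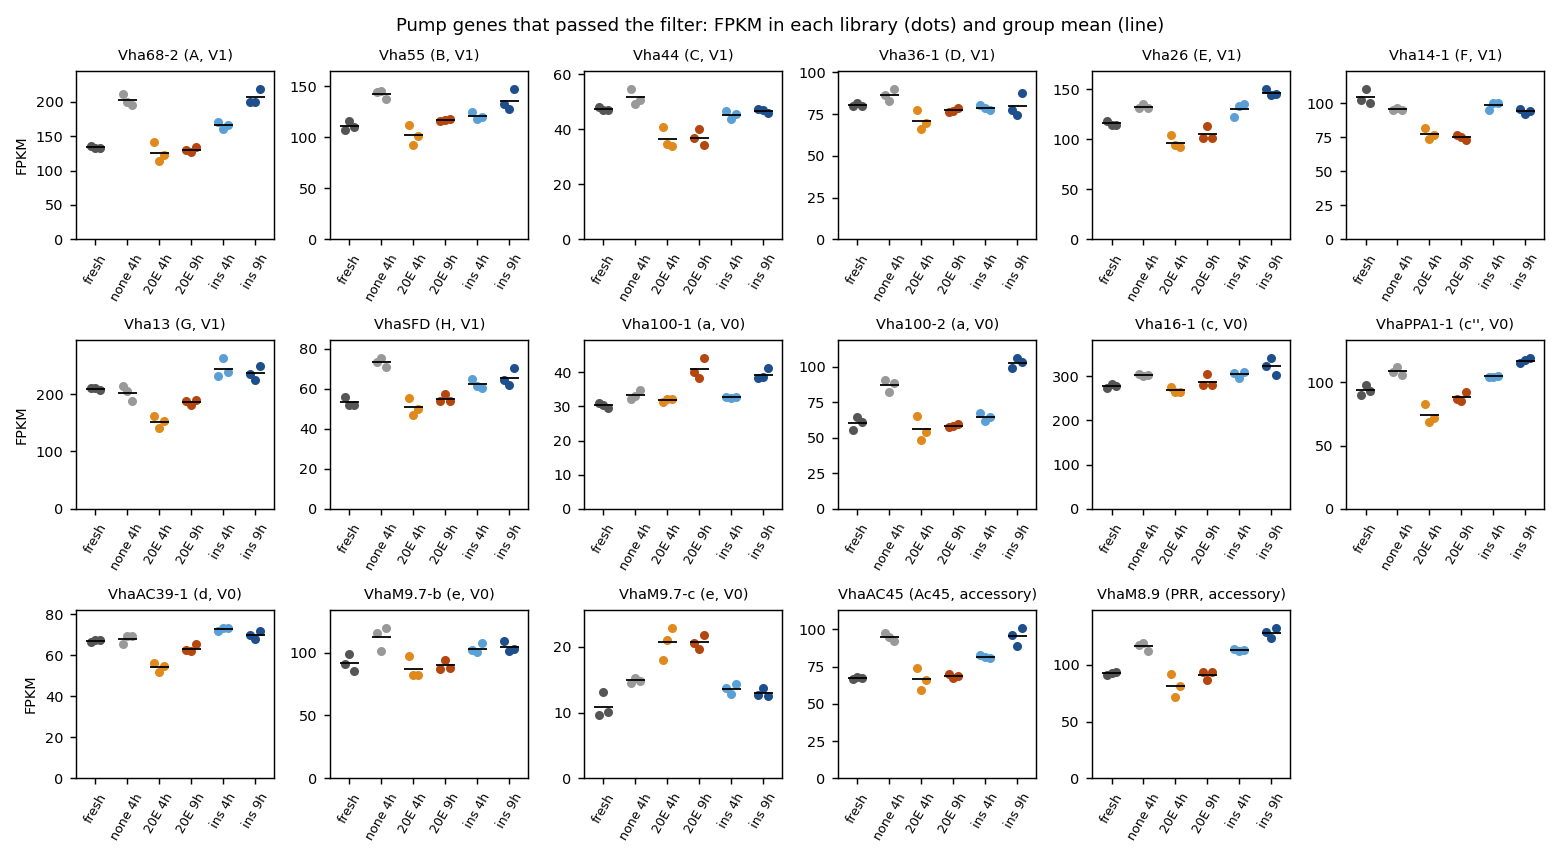
Each panel plots the FPKM (linear axis from 0) of an expressed pump gene in every library, in the order uncultured (fresh), no hormone 4 h, 20E 4 h and 9 h, insulin 4 h and 9 h; dots are libraries and lines are means of 3. In 15 of 17 panels both 20E means lie below the means of the other cultured groups, and the exceptions are Vha100-1 and VhaM9.7-c.

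The spread of the members' levels across groups was measured from the group means. The ratio of the highest to the lowest group mean ran from 1.20 for Vha16-1 to 1.90 for VhaM9.7-c, with a median of 1.44 over the 17 members against 1.63 over all 8524 tested genes. Vha100-2 had a ratio of 1.84 and Vha68-2 a ratio of 1.64. The members' summed level was 1630 to 1683 FPKM in uncultured discs and 1900 to 1957 FPKM without hormone. It was 1365 to 1568 FPKM after 4 h and 1575 to 1604 FPKM after 9 h in 20E. In insulin it was 1830 to 1846 FPKM after 4 h and 1971 to 2048 FPKM after 9 h. In the values as deposited, the sums of both 20E groups lay below those of every other group, fresh discs included. The order against fresh discs depended on scaling. At 9 h in 20E the members' median log2 change from fresh discs was -0.04 as deposited. It was -0.0014 with libraries rescaled to equal sums and 0.13 under quantile normalization. At 4 h in 20E these medians were -0.12, -0.10 and 0.0019. In bulk libraries, fewer cells of a type and less RNA per cell cannot be told apart.

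Among the V1 genes, Vha68-2 (chromosome arm 2L) encodes subunit A, which carries the catalytic site for ATP. Vha68-2 stood at 136, 133 and 133 FPKM in the uncultured libraries and at 211, 200.2 and 196 FPKM without hormone. In 20E the values were 142, 114 and 123 FPKM at 4 h and 129.5, 127 and 134 FPKM at 9 h, and in insulin they were 171, 160.3 and 166 FPKM and 201, 200.0 and 219 FPKM. The no hormone and 9 h insulin values overlapped at the top, the 4 h insulin values lay apart below them, and the 20E and uncultured values overlapped at the bottom. Vha55 (3R) encodes subunit B, which alternates with A around the head of the pump. The uncultured values of Vha55 were 107, 116 and 110.4 FPKM, and those without hormone 145, 145 and 137 FPKM. The 20E libraries held 112, 92.9 and 102 FPKM at 4 h and 116, 117 and 118 FPKM at 9 h, against 125, 117 and 120.2 FPKM and 133, 127 and 148 FPKM in insulin. All no hormone values lay above the uncultured, 20E and 4 h insulin values, and the 4 h 20E and uncultured ranges overlapped.

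Subunits D and F form the central rotor. Vha36-1 (2R) encodes subunit D. For Vha36-1, fresh discs gave 79.7, 81.7 and 79.9 FPKM and hormone-free culture gave 86.7, 83.1 and 90.2 FPKM. Culture with 20E gave 77.4, 66.2 and 69.9 FPKM after 4 h and 76.2, 76.9 and 78.7 FPKM after 9 h, and culture with insulin gave 80.4, 78.5 and 77.3 FPKM and then 77.7, 74.7 and 87.7 FPKM. The 4 h 20E values lay below the uncultured and no hormone values and overlapped the other ranges. Vha14-1 (2R) encodes subunit F. Vha14-1 stood at 102, 111 and 100.0 FPKM in the uncultured libraries and at 94.9, 96.5 and 95.3 FPKM without hormone. In 20E the values were 82.1, 73.6 and 76.5 FPKM at 4 h and 76.5, 75.3 and 73.1 FPKM at 9 h, and in insulin they were 95.5, 100.1 and 100.4 FPKM and 95.8, 92.5 and 94.8 FPKM. All 6 values in 20E were lower than the 12 values outside it, and fresh discs had the highest mean.

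Subunits E and G build the outer stalks that hold the head still. Vha26 (3R) encodes subunit E. The uncultured values of Vha26 were 118, 115 and 115 FPKM, and those without hormone 131, 136 and 131 FPKM. The 20E libraries held 104, 94.0 and 92.3 FPKM at 4 h and 101, 113 and 101 FPKM at 9 h, against 122, 133 and 135 FPKM and 151, 144 and 145 FPKM in insulin. The 6 values in 20E lay below all 12 others, and the 9 h insulin values lay above all the rest. Vha13 (3R) encodes subunit G. For Vha13, fresh discs gave 211, 211 and 206 FPKM and hormone-free culture gave 215, 206 and 187 FPKM. Culture with 20E gave 161, 142 and 153 FPKM after 4 h and 187, 182 and 189.7 FPKM after 9 h, and culture with insulin gave 231, 262 and 239 FPKM and then 235, 225 and 249 FPKM. Its 4 h 20E values were below every other library, and both insulin groups were above every other group.

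Subunits C and H join the head to the membrane sector and take part in its reversible assembly. Vha44 (2R) encodes subunit C. Vha44 stood at 48.0, 47.0 and 46.8 FPKM in the uncultured libraries and at 54.7, 49.3 and 50.8 FPKM without hormone. In 20E the values were 40.9, 34.8 and 33.9 FPKM at 4 h and 36.7, 40.0 and 34.2 FPKM at 9 h, and in insulin they were 46.6, 43.6 and 45.4 FPKM and 47.4, 46.9 and 45.8 FPKM. The 20E values were below those of the other 12 libraries, and the no hormone values were above those of all other groups. VhaSFD (2L) encodes subunit H. The uncultured values of VhaSFD were 56.1, 52.2 and 52.0 FPKM, and those without hormone 73.7, 75.3 and 71.0 FPKM. The 20E libraries held 55.4, 47.1 and 50.0 FPKM at 4 h and 53.8, 57.6 and 53.9 FPKM at 9 h, against 64.7, 61.6 and 60.5 FPKM and 64.2, 62.1 and 70.5 FPKM in insulin. No hormone values were again above all others, and the 20E values were below the other cultured groups while overlapping the uncultured range.

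Among the V0 genes, subunit a forms the half-channels through which protons enter and leave. Vha100-2 (3R) was its more abundant gene. For Vha100-2, fresh discs gave 55.5, 64.8 and 60.8 FPKM and hormone-free culture gave 90.4, 81.9 and 88.6 FPKM. Culture with 20E gave 65.4, 48.4 and 54.2 FPKM after 4 h and 57.7, 58.3 and 59.7 FPKM after 9 h, and culture with insulin gave 67.2, 62.2 and 64.5 FPKM and then 99.2, 106 and 103 FPKM. The 9 h insulin values were the highest, the no hormone values came next with no overlap, and the ranges of adjacent groups in the remaining order overlapped. Vha100-1 (3R), its paralogue, is known in flies for synaptic roles in neurons. Vha100-1 stood at 30.9, 30.4 and 29.6 FPKM in the uncultured libraries and at 32.0, 33.1 and 34.8 FPKM without hormone. In 20E the values were 31.3, 32.1 and 32.3 FPKM at 4 h and 40.2, 38.2 and 44.1 FPKM at 9 h, and in insulin they were 32.8, 32.4 and 32.7 FPKM and 38.2, 38.6 and 41.2 FPKM. Here the libraries separated by hours of culture: uncultured values lay below all cultured ones, and the 9 h values of both hormones lay above every 4 h value.

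The proton-carrying ring is built from subunits c and c''. Vha16-1 (2R) encodes subunit c. The uncultured values of Vha16-1 were 274, 281 and 277 FPKM, and those without hormone 303, 299.9 and 302 FPKM. The 20E libraries held 275, 265 and 264 FPKM at 4 h and 279, 304 and 279 FPKM at 9 h, against 308, 294 and 309.6 FPKM and 323, 340.1 and 303 FPKM in insulin. Each group overlapped its neighbour in the order of levels, although the 4 h 20E values were all below the no hormone values. VhaPPA1-1 (3R) encodes subunit c''. For VhaPPA1-1, fresh discs gave 89.7, 97.9 and 93.2 FPKM and hormone-free culture gave 108, 112 and 106 FPKM. Culture with 20E gave 82.6, 68.6 and 71.7 FPKM after 4 h and 86.7, 84.9 and 92.4 FPKM after 9 h, and culture with insulin gave 104, 104 and 105 FPKM and then 115, 117 and 119 FPKM. The 4 h 20E values were below every other library. The 4 h insulin, no hormone and 9 h insulin values stood in that order, from low to high, without overlap.

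VhaAC39-1 (X) encodes subunit d, which couples the rotor to the ring. VhaAC39-1 stood at 66.6, 67.8 and 67.3 FPKM in the uncultured libraries and at 65.6, 69.4 and 69.4 FPKM without hormone. In 20E the values were 56.4, 52.0 and 54.6 FPKM at 4 h and 62.5, 62.1 and 65.6 FPKM at 9 h, and in insulin they were 71.9, 73.5 and 73.3 FPKM and 70.0, 68.1 and 72.0 FPKM. The 4 h 20E values were below all others, and the 9 h 20E values reached the lower edge of the no hormone range. Subunit e is a small membrane protein with 2 expressed genes, both on 3L. The uncultured values of VhaM9.7-b were 91.0, 98.8 and 85.7 FPKM, and those without hormone 115, 101 and 119.8 FPKM. The 20E libraries held 97.4, 81.9 and 81.8 FPKM at 4 h and 87.0, 94.3 and 87.9 FPKM at 9 h, against 102, 100.2 and 107 FPKM and 109.6, 102 and 103 FPKM in insulin. The 20E values of VhaM9.7-b lay below the other cultured values and overlapped the uncultured range. For VhaM9.7-c, fresh discs gave 9.64, 13.1 and 10.0 FPKM and hormone-free culture gave 14.5, 15.3 and 14.8 FPKM. Culture with 20E gave 18.1, 21.1 and 22.9 FPKM after 4 h and 20.6, 19.7 and 21.9 FPKM after 9 h, and culture with insulin gave 13.8, 12.9 and 14.3 FPKM and then 12.6, 13.8 and 12.5 FPKM. For VhaM9.7-c the order was turned round, with all 6 values in 20E above the 12 others.

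The accessory proteins are membrane proteins that bind V0 and are needed for its assembly or sorting. VhaAC45 (2R) is the fly relative of the mammalian accessory subunit Ac45. VhaAC45 stood at 66.9, 68.2 and 67.2 FPKM in the uncultured libraries and at 97.4, 94.6 and 92.1 FPKM without hormone. In 20E the values were 74.0, 59.3 and 65.9 FPKM at 4 h and 70.2, 67.2 and 68.7 FPKM at 9 h, and in insulin they were 82.5, 81.2 and 80.9 FPKM and 96.2, 88.7 and 101 FPKM. No hormone and 9 h insulin values overlapped at the top, 4 h insulin values lay apart in the middle, and the 20E and uncultured values overlapped. VhaM8.9 (3R), the fly prorenin receptor homologue, is also known for a role in planar polarity in fly wings. The uncultured values of VhaM8.9 were 91.3, 93.0 and 93.7 FPKM, and those without hormone 117, 119 and 112 FPKM. The 20E libraries held 92.1, 71.5 and 81.4 FPKM at 4 h and 93.7, 86.7 and 93.2 FPKM at 9 h, against 114, 112 and 113 FPKM and 128, 124 and 132 FPKM in insulin. The 9 h insulin values were the highest of all, and the 20E values lay below the other cultured groups.

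Hormone-free culture was first compared with fresh discs. Vha68-2, Vha100-2, VhaAC45, VhaSFD and VhaM9.7-c rose most after 4 h without hormone. On the log2(FPKM + 1) scale used for all changes here, Vha68-2 changed by 0.59 ± 0.06 (SE, adjusted p = 7.07e-07) and Vha100-2 by 0.52 ± 0.08 (SE, adjusted p = 4.97e-05) in limma's test adjusted by Benjamini-Hochberg over all tested genes. VhaAC45 changed by 0.48 ± 0.06 (SE, adjusted p = 4.93e-06), VhaSFD by 0.45 ± 0.06 (SE, adjusted p = 7.01e-06) and VhaM9.7-c by 0.43 ± 0.10 (SE, adjusted p = 0.00112). In all, 12 of the 17 expressed members were called higher, at adjusted p under 0.05, while 35.1% of tested genes were. Only Vha14-1 was called lower, at -0.13 ± 0.04 (SE, adjusted p = 0.0163), where 35.5% of tested genes were. Vha36-1, Vha44, Vha13 and VhaAC39-1 did not pass, with changes of 0.11, 0.12, -0.05 and 0.02. The members' median change was 0.22 against -0.0022 over all tested genes. Ranges did not overlap for 15 members, against 73.2% of tested genes.

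Some calls in that comparison were tied to the libraries used. Vha14-1 lost its call without uncultured replicate 2 (-0.08, adjusted p = 0.0965) and turned to 0.05 under quantile normalization. Vha16-1 lost its call without uncultured replicate 1 (0.11, adjusted p = 0.0548), and Vha100-1 without uncultured replicate 3 (0.12, adjusted p = 0.0725) or no hormone replicate 3 (0.10, adjusted p = 0.0961). Without uncultured replicate 2 and no hormone replicate 1, the libraries with the highest gut marker sums, 11 members were called higher and 0 lower. The wing disc markers summed to 441 to 482 FPKM in fresh discs and to 403 to 410.2 FPKM without hormone, with 1 of 7 called higher and 4 lower. The 8 muscle markers summed to 26.9 to 64.1 FPKM in fresh discs and to 24.1 to 29.2 FPKM without hormone, with 2 of the 7 tested called lower. The part of these markers in the result was not tested.

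Culture with 20E was compared with hormone-free culture of the same length, in the same no hormone libraries that were compared with fresh discs. In comparisons with hormone-free culture, fell and rose mean lower or higher than in those parallel libraries, not a change over time. After 4 h in 20E, 15 of the 17 members were lower than without hormone, against 15.0% of all tested genes called lower. Among the members, they were the more abundant or only expressed gene of each of the 15 subunit types. Vha68-1 and CG31030 lie outside that ranking. Vha68-2 had a mean of 126 FPKM in 20E and 202 FPKM without hormone, a change of -0.68 ± 0.06 (SE, adjusted p = 1.34e-06). Vha100-2 changed by -0.64 ± 0.08 (SE, adjusted p = 4.44e-05), VhaPPA1-1 by -0.55 ± 0.06 (SE, adjusted p = 3.87e-06), VhaSFD by -0.52 ± 0.06 (SE, adjusted p = 1.15e-05) and VhaAC45 by -0.51 ± 0.06 (SE, adjusted p = 2.05e-05). The smallest change that was called was that of Vha16-1, -0.17 ± 0.04 (SE, adjusted p = 0.00574). Among V1 genes all 8 fell, among V0 genes 5 of 7, and both accessory genes. The member that rose was VhaM9.7-c, with 20.7 FPKM in 20E and 14.9 FPKM without hormone. Its change was 0.44 ± 0.10 (SE, adjusted p = 0.00293), where 15.7% of tested genes were called higher. Vha100-1 did not pass, at -0.06 ± 0.05 (SE, adjusted p = 0.364). The median change of the members was -0.45 and that of all tested genes -0.0094. No member changed by as much as 2-fold on this scale, and ranges did not overlap for 16 members, against 43.0% of tested genes. Of the genes that fell most, Vha68-2, Vha100-2, VhaSFD and VhaAC45 were not called in 20E 4 h against fresh discs (limma, adjusted p = 0.208, 0.234, 0.291 and 0.706). VhaPPA1-1 was called lower there (adjusted p = 8.68e-05).

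The count of members that fell was 15 whichever library was left out, 20E 4 h replicate 1 and no hormone replicate 1 included, and 15 without uncultured replicate 2 and no hormone replicate 1. Vha16-1 lost its call when values were rescaled to the same sum per library. Markers of other cells moved with the comparison. The 8 haemocyte markers summed to 31.4 to 39.3 FPKM after 4 h in 20E and to 75.3 to 94.6 FPKM without hormone. Nearly all of that came from the collagen genes vkg and Cg25C, which fell, while 6 markers, Hml and NimC1 among them, stayed under the filter in these libraries. The 7 wing disc markers summed to 528 to 580 FPKM in 20E and to 403 to 410.2 FPKM without hormone. Gut markers summed to 3.11 to 5.15 FPKM in 20E and to 4.46 to 1148 FPKM without hormone. The muscle markers summed to 17.0 to 26.1 FPKM in 20E and to 24.1 to 29.2 FPKM without hormone. The part of the haemocyte, wing disc and muscle markers in the result was not tested.

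**Figure D2:**
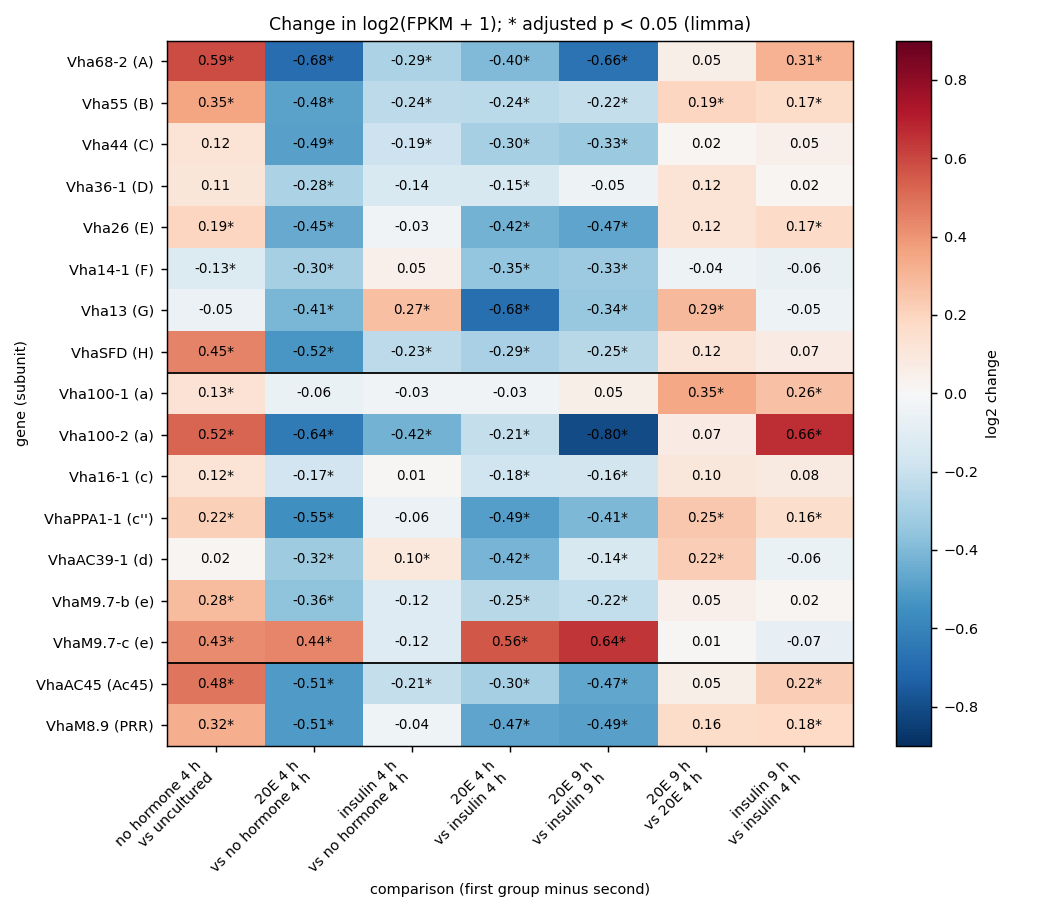
Rows are the 17 expressed pump genes (V1, V0 and accessory, parted by lines), columns are 7 comparisons, and each cell prints and colours the change in log2(FPKM + 1), first group minus second, with an asterisk at adjusted p under 0.05 in limma. In the column 20E 4 h against no hormone, 15 genes carry a called fall from -0.17 to -0.68, and VhaM9.7-c a called rise of 0.44.

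Insulin was compared with hormone-free culture at the same 4 h. Calls went in both directions. The genes that fell were 6: Vha100-2 by -0.42 ± 0.08 (SE, adjusted p = 0.000503), Vha68-2 by -0.29 ± 0.06 (SE, adjusted p = 0.00121), Vha55 by -0.24 ± 0.06 (SE, adjusted p = 0.00435), VhaSFD by -0.23 ± 0.06 (SE, adjusted p = 0.00349), VhaAC45 by -0.21 ± 0.06 (SE, adjusted p = 0.00783), and Vha44. That count stood against 27.6% of tested genes called lower. The genes that rose were Vha13, by 0.27 ± 0.06 (SE, adjusted p = 0.00142), and VhaAC39-1, by 0.10 ± 0.04 (SE, adjusted p = 0.0308), where 30.3% of tested genes were called higher. The share of members that fell was near its background, and the share that rose was below it. The median change was -0.12 for members and 0.014 for all tested genes, and ranges did not overlap for 11 members, against 64.4% of tested genes. VhaAC39-1 lost its call without no hormone replicate 1 (0.07, adjusted p = 0.141), insulin 4 h replicate 2 (adjusted p = 0.0812) or insulin 4 h replicate 3 (adjusted p = 0.0768). Vha44 lost its call without no hormone replicate 1 (-0.15, adjusted p = 0.103) or insulin 4 h replicate 2 (adjusted p = 0.0816), while VhaM9.7-b and Vha36-1 gained one without no hormone replicate 2 (adjusted p = 0.0489 and 0.0443). Vha13 lost its call under quantile normalization. Without the 4 libraries highest in gut markers, an alternative chosen after seeing the data that leaves 1 insulin 4 h library and assumes it varies like the other groups, 1 member was called higher and 0 lower by limma (1 was lower at an unadjusted p under 0.05). The haemocyte markers summed to 97.3 to 109.0 FPKM in insulin. Both tested markers, the collagen genes vkg and Cg25C, were called higher than without hormone, while the other haemocyte markers stayed under the filter. Their part was not tested.

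The hormones were then set against each other, in groups whose libraries also entered the comparisons with hormone-free culture. At 4 h, 15 members were lower in 20E than in insulin, where 29.2% of tested genes were called lower. Vha13 differed most, at -0.68 ± 0.06 (SE, adjusted p = 3.05e-07), followed by VhaPPA1-1 at -0.49 ± 0.06 (SE, adjusted p = 3.31e-06), VhaM8.9 at -0.47 ± 0.06 (SE, adjusted p = 2.17e-05), Vha26 at -0.42 ± 0.05 (SE, adjusted p = 8.17e-06) and VhaAC39-1 at -0.42 ± 0.04 (SE, adjusted p = 2.1e-07). VhaM9.7-c was higher in 20E, at 0.56 ± 0.10 (SE, adjusted p = 0.000176), where 27.6% of tested genes were, and Vha100-1 did not pass, at -0.03. Ranges did not overlap for 15 members, against 63.1% of tested genes. The members' median was -0.30 and that of all genes -0.013. Vha16-1 turned to 0.019 under quantile normalization, where Vha36-1, VhaM9.7-b and Vha100-2 lost their calls (adjusted p = 0.315, 0.0777 and 0.0859). The count of lower members was 12 without 20E 4 h replicate 2, when Vha36-1, VhaM9.7-b and Vha100-2 lost their calls (adjusted p = 0.186, 0.052 and 0.211). These genes also lost their calls without 20E 4 h replicate 3, and Vha36-1 and Vha100-2 without insulin 4 h replicate 1 or 3, and Vha36-1 without insulin 4 h replicate 2, with adjusted p from 0.0542 to 0.115. Without the 4 libraries highest in gut markers, 12 members were lower. The haemocyte markers summed to 31.4 to 39.3 FPKM in 20E and to 97.3 to 109.0 FPKM in insulin. Of these only the collagen genes vkg and Cg25C were tested, and both were called lower. The wing disc markers summed to 528 to 580 FPKM in 20E and to 406 to 436 FPKM in insulin, with 4 of 7 called higher. Gut markers summed to 3.11 to 5.15 FPKM in 20E and to 2.58 to 339 FPKM in insulin. The part of the haemocyte and wing disc markers was not tested.

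At 9 h, 14 members were lower in 20E than in insulin, against 26.4% of tested genes. Vha100-2 stood at a mean of 58.6 FPKM in 20E and 103 FPKM in insulin, a difference of -0.80 ± 0.08 (SE, adjusted p = 1.94e-06). Vha68-2 differed by -0.66 ± 0.06 (SE, adjusted p = 7.41e-07), VhaM8.9 by -0.49 ± 0.06 (SE, adjusted p = 2.01e-05), Vha26 by -0.47 ± 0.05 (SE, adjusted p = 3.52e-06) and VhaAC45 by -0.47 ± 0.06 (SE, adjusted p = 1.92e-05). VhaM9.7-c was higher in 20E by 0.64 ± 0.10 (SE, adjusted p = 6.6e-05), where 26.6% of tested genes were. Vha36-1 and Vha100-1 did not pass, at -0.05 and 0.05. The members' median was -0.33 against -0.0056 for all tested genes. Ranges did not overlap for 14 members, against 58.0% of tested genes. Vha55 lost its call without insulin 9 h replicate 3 (adjusted p = 0.0538), and VhaM9.7-b without 20E 9 h replicate 1 or 3 or insulin 9 h replicate 1 (adjusted p from 0.0665 to 0.0894). Vha16-1 and VhaM9.7-b lost their calls with libraries rescaled to equal sums (adjusted p = 0.0814 and 0.0754). Vha16-1 also lost its call under quantile normalization (adjusted p = 0.56) and with only the groups compared (adjusted p = 0.0625). The haemocyte markers, of which only the collagen genes vkg and Cg25C passed the filter, summed to 21.9 to 23.9 FPKM in 20E and to 102 to 105 FPKM in insulin at 9 h. The wing disc markers summed to 574 to 642 FPKM in 20E and to 430 to 475 FPKM in insulin, with 5 of 7 called higher. The part of both marker lists was not tested.

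Time in each hormone was compared next, where hours of culture and hours of hormone cannot be told apart. In 20E, 5 members rose between 4 h and 9 h, against 11.2% of tested genes, and 0 fell by limma, against 11.7%, with 0 lower also at an unadjusted p under 0.05. Those that rose were Vha100-1 by 0.35 ± 0.05 (SE, adjusted p = 0.000185), Vha13 by 0.29 ± 0.06 (SE, adjusted p = 0.00331), VhaPPA1-1 by 0.25 ± 0.06 (SE, adjusted p = 0.006), VhaAC39-1 by 0.22 ± 0.04 (SE, adjusted p = 0.000652) and Vha55 by 0.19 ± 0.06 (SE, adjusted p = 0.0357). Vha68-2 and Vha100-2 did not pass, at 0.05 and 0.07. The members' median change was 0.12 and that of all tested genes 0.0075. Ranges did not overlap for 6 members, against 37.6% of tested genes. Without 20E 4 h replicate 1 the count was 9, with Vha26, Vha36-1, VhaSFD and VhaM8.9 added, and it was 4 without 20E 4 h replicate 2, where Vha55 lost its call (adjusted p = 0.15). Vha55 also lost it without 20E 4 h replicate 3 or any 20E 9 h library, with adjusted p from 0.0708 to 0.0866, and with only the 20E groups in the fit the count was 3. Both tested haemocyte markers, the collagen genes vkg and Cg25C, fell over the same time and 2 of 7 wing disc markers rose. The part of these markers was not tested.

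In insulin, 8 members rose between 4 h and 9 h, against 21.3% of tested genes, and 0 fell by limma, against 23.3%, with 0 lower also at an unadjusted p under 0.05. Vha100-2 rose most, by 0.66 ± 0.08 (SE, adjusted p = 2.89e-05), then Vha68-2 by 0.31 ± 0.06 (SE, adjusted p = 0.00101), Vha100-1 by 0.26 ± 0.05 (SE, adjusted p = 0.00047), VhaAC45 by 0.22 ± 0.06 (SE, adjusted p = 0.00914) and VhaM8.9 by 0.18 ± 0.06 (SE, adjusted p = 0.035). The others were Vha55, Vha26 and VhaPPA1-1. The median change was 0.08 over members and 0 over all tested genes. Ranges did not overlap for 8 members, against 54.6% of tested genes. Calls of Vha55, Vha26, VhaPPA1-1 and VhaM8.9 depended on which insulin library was left out, with adjusted p of 0.0542 to 0.188 where they were lost. The count then lay between 5, without insulin 4 h replicate 1, and 7, without insulin 9 h replicate 2, and Vha16-1 gained a call without insulin 9 h replicate 3 (adjusted p = 0.0247). Without the 4 libraries highest in gut markers the count was 3. The muscle markers summed to 25.3 to 29.2 FPKM at 4 h and to 45.9 to 49.7 FPKM at 9 h, with 1 of 7 called higher, 2 of 7 wing disc markers rose, and their part was not tested.

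The change over time differed between the hormones for 4 members by the interaction test, the change in 20E minus the change in insulin. Vha100-2 had -0.59 ± 0.12 (SE, adjusted p = 0.00245) and Vha68-2 -0.26 ± 0.09 (SE, adjusted p = 0.0394), so for both the 9 h minus 4 h difference was larger in insulin. VhaAC39-1 had 0.28 ± 0.05 (SE, adjusted p = 0.00137) and Vha13 0.34 ± 0.08 (SE, adjusted p = 0.00906), so for both it was larger in 20E. These counts, 2 in each direction, stood against 13.5% of tested genes called higher and 13.0% called lower, close to the members' shares. Vha68-2 lost its call when any of 6 libraries was left out (20E 4 h replicate 1, 20E 9 h replicate 1 or 2, insulin 4 h replicate 2 or 3, insulin 9 h replicate 3), with adjusted p from 0.0679 to 0.0964, and VhaAC45 gained a call at -0.25 without 20E 4 h replicate 2 (adjusted p = 0.0215). Without the 4 libraries highest in gut markers, 1 member was called in each direction.

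Each hormone group was also compared with fresh discs, in limma. After 4 h in 20E, 8 members were lower (33.1% of tested genes were) and only VhaM9.7-c higher (34.2%), at 0.87 ± 0.10 (SE, adjusted p = 1.51e-06). Vha13 at -0.46 ± 0.06 (SE, adjusted p = 7.44e-06) and Vha14-1 at -0.43 ± 0.04 (SE, adjusted p = 4.6e-07) were the lowest. After 9 h in 20E, 5 members were lower (34.4% of tested genes), led by Vha14-1 at -0.47 ± 0.04 (SE, adjusted p = 1.28e-07), and VhaM9.7-c and Vha100-1 were higher (36.9%). After 4 h in insulin 10 members were higher (25.8% of tested genes) and 0 lower (26.7%), with 0 lower also at an unadjusted p under 0.05. After 9 h in insulin 13 members were higher (34.4%), led by Vha100-2 at 0.76 ± 0.08 (SE, adjusted p = 1.27e-06) and Vha68-2 at 0.62 ± 0.06 (SE, adjusted p = 5.74e-07), and Vha14-1 was lower (33.2%) at -0.14 ± 0.04 (SE, adjusted p = 0.00779). Without 20E 4 h replicate 1 the lower count at 4 h in 20E was 11, and it was 6 without 20E 4 h replicate 2. The lower count at 9 h in 20E was 2 without uncultured replicate 1 and 3 without 20E 9 h replicate 1 or 2. The higher count at 4 h in insulin was 6 without insulin 4 h replicate 3 and 2 without the 4 libraries highest in gut markers. The higher count at 9 h in insulin was 10 without uncultured replicate 3, when VhaM9.7-b, VhaM9.7-c and Vha13 lost their calls. VhaM9.7-b and VhaM9.7-c also lost theirs without uncultured replicate 1 or insulin 9 h replicate 1 or 3. Under quantile normalization the lower count at 4 h in 20E was 5, and the 9 h 20E counts became 2 lower and 7 higher. At 9 h in 20E the shares of members called lower and higher were both below those of all tested genes. Both tested haemocyte markers were lower than in fresh discs in 20E and higher in insulin, at 4 h and 9 h. At 9 h in 20E, 6 of 7 muscle markers were lower and 1 higher, and 5 of 7 wing disc markers were higher. The part of these markers was not tested.

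The shares of the paralogues were compared within each library. Of the summed Vha100-1 and Vha100-2 level, Vha100-2 made up 66.5% ± 2.0 (SD, n = 3) in uncultured discs and 72.3% ± 1.4 without hormone. Its share was 63.5% ± 3.8 at 4 h and 58.9% ± 1.4 at 9 h in 20E. In insulin it was 66.4% ± 0.76 at 4 h and 72.3% ± 0.88 at 9 h. At 9 h the log2 ratio of Vha100-2 to Vha100-1 was 0.52 ± 0.085 in 20E and 1.39 ± 0.064 in insulin, with no overlap, but a two-sided exact permutation test of 3 against 3 cannot go below p = 0.1, and this one gave p = 0.1 (0.175 adjusted over 14 such tests). For subunit e, VhaM9.7-c made up the smaller part in every library. The share of VhaM9.7-b was 89.4% ± 1.1 in uncultured discs, 88.2% ± 1.2 without hormone, and 88.3% ± 0.29 and 89.0% ± 0.82 in insulin at 4 h and 9 h. In 20E it was 80.7% ± 3.3 at 4 h and 81.2% ± 1.4 at 9 h. The log2 ratio of VhaM9.7-c to VhaM9.7-b at 4 h was -2.08 ± 0.31 in 20E and -2.91 ± 0.16 without hormone, again apart and again at the smallest exact permutation p of 0.1. The step from 4 h to 9 h in 20E left ranges overlapping for both pairs.

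**Figure D3:**
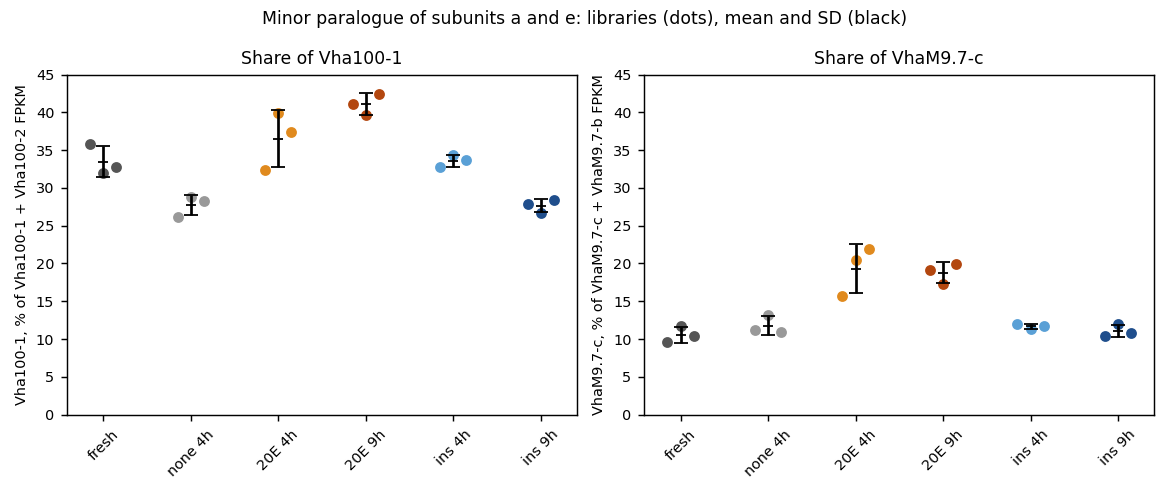
Each dot is a library's share of the less abundant paralogue in the summed FPKM of its pair (percent, linear axis from 0), Vha100-1 of subunit a at left and VhaM9.7-c of subunit e at right, with the mean and SD of 3 libraries in black. The share of Vha100-1 is highest in 20E at 9 h, and that of VhaM9.7-c is higher in all 6 libraries with 20E than in the other 12.

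The 15 members under the filter were Vha100-3, Vha100-4 and Vha100-5 (subunit a), Vha16-2, Vha16-3, Vha16-4 and Vha16-5 (c), VhaPPA1-2 (c''), VhaAC39-2 (d), VhaM9.7-a and VhaM9.7-d (e), Vha68-3 (A), Vha36-2 and Vha36-3 (D) and Vha14-2 (F). Vha16-2 and VhaM9.7-d were listed at 0 in all 18 libraries, and Vha16-3, Vha16-4 and VhaAC39-2 had a value above 0 in only 1 library each. Vha100-4 stood at 0.698, 0.669 and 0.830 FPKM in the uncultured libraries and at no more than 0.0865 FPKM in any cultured library. VhaPPA1-2 ranged from 0.141 to 0.473 FPKM in uncultured discs and reached 0.231 FPKM in culture, so its ranges overlapped. Vha100-5 had its highest values, 0.272 and 0.223 FPKM, in insulin 9 h replicate 2 and uncultured replicate 2. The gut markers summed to 69.8 and 16274 FPKM in those libraries. Vha100-5 was listed at 0 in no hormone replicate 1 and in insulin 4 h replicates 2 and 3. Their gut marker sums were 1148, 339 and 237 FPKM. A link of Vha100-5 to gut transcripts was not tested. In the Ensembl 115 annotation (assembly BDGP6.54) Vha100-4 is the next gene downstream of Vha100-2 on the same strand, with a gap of 517 nt, and Vha68-3 follows Vha68-2 with a gap of 178 nt. These genes were not in the fit, so their differences carry no test.

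**Figure D4:**
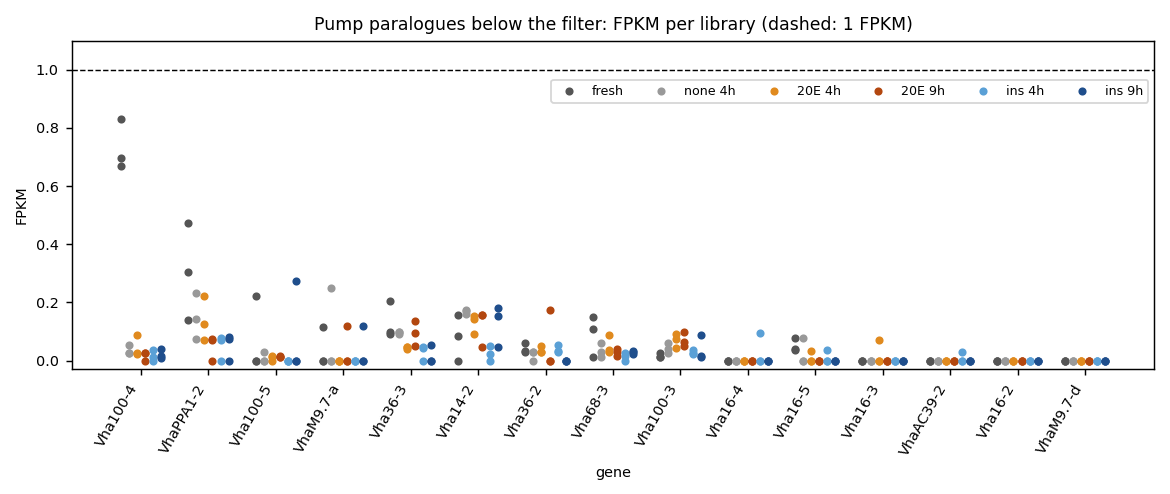
Dots give the FPKM (linear axis) of each library for the 15 pump paralogues that did not pass the filter, coloured by group, with a dashed line at 1 FPKM. All dots lie under the line, and the 3 uncultured values of Vha100-4, from 0.669 to 0.830, stand above all other values.

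Genes that work with the pump were taken from lists of known genes and compared in the same fit. Mitf, the fly transcription factor known to activate V-ATPase and lysosomal genes, rose without hormone against fresh discs (0.33 ± 0.06, adjusted p = 9.48e-05). Mitf did not pass in 20E 4 h against no hormone (-0.07, adjusted p = 0.359) or in insulin 4 h against no hormone (0.02, adjusted p = 0.815). Rbcn-3A and Rbcn-3B encode the rabconnectin complex, which promotes pump assembly. Rbcn-3B rose without hormone (0.36 ± 0.06, adjusted p = 0.000116) and was lower in insulin than without hormone at 4 h (-0.24 ± 0.06, adjusted p = 0.00417), and Rbcn-3A was called in none of the 12 comparisons. Of 4 listed assembly and control genes, 3 rose without hormone, against 35.1% of tested genes. In 20E 4 h against no hormone 0 of the 4 were called by limma, and 0 had an unadjusted p under 0.05. With 15.7% of tested genes called higher and 15.0% lower there, 0 of 4 is near the background. In insulin, 2 of the 4 were higher at 9 h than at 4 h, where 21.3% of tested genes were. In 20E against insulin, 1 was higher at 4 h (27.6% of tested genes) and 1 lower at 9 h (26.4%). In the interaction 1 was lower (13.0%).

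Lysosomal genes, which encode hydrolases and membrane proteins of the compartment the pump acidifies, rose without hormone for 9 of 15 tested and fell for 4, against 35.1% and 35.5% of all tested genes. In 20E 4 h against no hormone 2 of the 15 rose and 2 fell, with a median change of -0.04, and these counts were near the background of 15.7% and 15.0%. Autophagy genes rose for 14 of 17 without hormone and fell for 2, with a median of 0.67, and 1 rose and 1 fell in 20E against no hormone, with a median of -0.07. In insulin 4 h, 11 autophagy genes were lower than without hormone and 1 was higher, with a median of -0.32. In the same comparison 10 lysosomal genes were lower and the other 5 higher, with a median of -0.26. There 27.6% of all tested genes were called lower and 30.3% higher. Against fresh discs, 14 autophagy genes were higher in insulin 4 h and 1 lower, and 8 lysosomal genes were higher and 1 lower. In that comparison 25.8% of tested genes were called higher and 26.7% lower. Of 14 genes of nutrient sensing at the lysosome, 10 rose and 3 fell without hormone, and 5 fell and 2 rose in 20E against no hormone. All 13 genes of the mitochondrial ATP synthase, the rotary enzyme related to the V-ATPase, fell without hormone against fresh discs (median -0.83). All 13 were higher in insulin 4 h than without hormone (median 0.35) but lower than in fresh discs (median -0.50). In 20E against no hormone 0 of 13 were called by limma, with a median of -0.03 and 1 at an unadjusted p under 0.05. Differences between lists were not tested.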

How the data were processed

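Poly(A) RNA of 18 wing disc pools was sequenced by the authors with a strand-specific kit, per the labels' protocols. The authors deposited 1 table of FPKM values with a column per library. The submitters' processing notes name cutadapt, TopHat2, Cufflinks and the build BDGP5, without versions or roles, so any filter or scaling is not given in the sources used here. The columns were matched to samples through the sample descriptions, and groups and replicate numbers follow the titles. FPKM is scaled per length and depth, and a gene's level therefore depends on the transcript models used.

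The table holds no counts. Low values of genes with a transcript of at least 1000 nt fell on steps of about 1 fragment, which gave the depth estimates. In each library the depth and a length correction were chosen to bring these values near whole fragments. With that choice, 87.1% to 93.6% of the low values came within 0.1 of a whole fragment. Chance gives 20% for a depth fixed beforehand, so that figure is not a baseline for the best of many depths. The precision of each value was taken from the spread of replicates alone.

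Members were matched by name, and 28 of 32 identifiers were found in the Ensembl 115 annotation. Coordinates are not given because its assembly is not the build named in the notes. The name Vha68-1 was not found in the table and that gene was not analysed here. CG31030, also related to Ac45, falls outside the name rule. The members and the gene lists were chosen with earlier results of these data known, so no count over them is independent evidence. Per-library values are given for the most abundant member of each subunit and for other called members. Changes are given for at most the 5 largest called members per comparison and direction. Some others are named after their values were seen.

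The 8524 genes that reached 1 FPKM in 3 or more libraries were transformed as log2(FPKM + 1), which understates changes at low levels. Using limma 3.58.1 under R 4.3.3 (eBayes with trend), group means of all 18 libraries were modelled with no other term. The 12 comparisons were each tested two-sided with Benjamini-Hochberg adjustment, and calls were made at adjusted p under 0.05. The fit was tested on simulated data. Figures were drawn with matplotlib 3.10.9. The alternatives changed the pseudocount (0.1), the filter (none, or a mean of 5 FPKM or more) or the scaling (median ratios, equal sums, quantiles). Others fitted only the groups compared, added a replicate block, left out each library in turn, or left out uncultured replicate 2 and no hormone replicate 1. Leaving out the 4 libraries highest in gut markers was added after seeing the data.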

Additional observations from a re-analysis of the deposited data

Results flagged for a closer look

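For 4 members the change over time differed between hormones, by the interaction test (the 9 h minus 4 h difference in 20E, less the same difference in insulin, in limma with adjustment over all tested genes).

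Vha100-2, a gene of membrane subunit a, had an interaction of -0.59 (adjusted p = 0.00245), with values higher at 9 h than at 4 h in 3 of 3 insulin libraries and overlapping ranges in 20E. Vha68-2, a gene of catalytic subunit A, had -0.26 (adjusted p = 0.0394), with the same pattern of ranges. VhaAC39-1, the gene of subunit d, had 0.28 (adjusted p = 0.00137), and Vha13, the gene of subunit G, had 0.34 (adjusted p = 0.00906). In both, the 20E ranges at 4 h and 9 h did not overlap and the insulin ranges did.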

How the results depend on the processing

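Over the 204 combinations of a member and a comparison, 2826 of the recomputed values kept direction and call, 142 lost the call, 30 gained it and 13 that were called in at least 1 of the fits compared turned direction. Another 66 turned direction without a call in either fit, 18 of them with quantile normalization and 48 with other alternatives. The count of members that fell in 20E 4 h against no hormone was 14 to 15 under every alternative run. All 13 turns of a called value came with quantile normalization. They were Vha13 (0.24) and Vha14-1 (0.049) in no hormone against uncultured, Vha16-1 in insulin 4 h against no hormone (-0.17) and in 20E 4 h against insulin 4 h (0.019), VhaM8.9 (0.0019), Vha16-1 (0.35) and Vha68-2 (0.17) in 20E 4 h against uncultured, Vha26 (0.092), Vha13 (0.19), VhaAC39-1 (0.0065), VhaM8.9 (0.17) and Vha68-2 (0.25) in 20E 9 h against uncultured, and Vha14-1 (0.014) in insulin 9 h against uncultured. Quantile normalization also left 0 members lower in no hormone and in insulin 9 h against uncultured, 0 higher in insulin 4 h against no hormone, 3 higher and 5 lower in 20E 4 h against uncultured, and 7 higher and 2 lower in 20E 9 h against uncultured. Without uncultured replicate 2 and no hormone replicate 1, the lower members against uncultured were 0 in no hormone, 0 in insulin 9 h and 3 in 20E 9 h, and 1 was higher in insulin 4 h against no hormone. With only the groups compared, 20E 9 h against 20E 4 h gave 1127 called genes in place of 1951 and 3 higher members, and 3 members were lower in 20E 9 h against uncultured. Rescaling to equal sums also gave 3 there. The interaction had 1 lower member with no filter, with equal sums and with only the groups compared, and insulin 9 h against insulin 4 h had 5 higher members with no filter. Without these and insulin 4 h replicates 2 and 3, the 4 libraries highest in gut markers (chosen after seeing the data, and leaving 1 insulin 4 h library), no hormone against uncultured had 0 lower members, insulin 4 h against no hormone 1 higher and 0 lower, insulin 9 h against insulin 4 h 2008 called genes and 3 higher members, the interaction 1262 called genes with 1 member in each direction, 20E 9 h against uncultured 3 lower, insulin 4 h against uncultured 2 higher and insulin 9 h against uncultured 0 lower. The cause of these shifts was not tested.

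With each library left out in turn, counts ranged from 0 to 1 for lower members in no hormone against uncultured, from 1 to 2 for higher members in insulin 4 h against no hormone, from 4 to 9 for higher members in 20E 9 h against 20E 4 h, and from 5 to 7 in insulin 9 h against insulin 4 h. They ranged from 1 to 3 for lower members in the interaction, from 6 to 11 in 20E 4 h against uncultured, and from 2 to 4 in 20E 9 h against uncultured. For higher members they ranged from 6 to 11 in insulin 4 h against uncultured and from 10 to 13 in insulin 9 h against uncultured. Scaling shifted the median of all genes by at most 0.043, but the members' median moved further under quantile normalization. It went from -0.04 to 0.13 in 20E 9 h against uncultured and from -0.12 to 0.0019 in 20E 4 h against uncultured. In no hormone against uncultured it went from 0.22 to 0.38, and in 20E 4 h against no hormone from -0.45 to -0.40. A check of the replicate numbers gave no sign that they pair the samples, though it cannot exclude pairing. Only 8 of 45 correlations between same-numbered libraries were over 0.1 (range -0.45 to 0.31), and 7 of 18 libraries correlated best with their own number. A replicate block left every count of called members as it was, with 15 lower in 20E 4 h against no hormone. Fewer libraries leave less power, and 3 per group limit the precision of every value. Depth is an estimate here, and levels under 1 FPKM were not tested.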

Other observations

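Other gene lists were compared between the hormones at 9 h. Autophagy genes, which build and load the vesicles that fuse with lysosomes, were higher in 20E than in insulin for 12 of 17 tested and lower for 1 at 9 h, with a median of 0.20, while 26.6% of all tested genes were higher and 26.4% lower. Lysosomal genes were higher for 7 of 15 and lower for 5 at 9 h, with a median of 0.12. The 13 mitochondrial ATP synthase genes were all lower in 20E at 9 h, with a median of -0.46. They also fell with time in both hormones, 10 of 13 in 20E and 12 of 13 in insulin, against 11.7% and 23.3% of all tested genes. Of the 17 pump genes 5 and 8 rose over the same times, against 11.2% and 21.3% of all tested genes. With each library left out in turn, these pump gene counts ranged from 4 to 9 in 20E and from 5 to 7 in insulin. Differences between lists were not tested.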
